A study of Mus musculus with 72 samples.

Results

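A set of 10 transcripts that mark fibroblasts or smooth muscle were followed in control mouse embryonic stem cells and in cells that lack Nup133, a scaffold subunit of the nuclear pore, over a neuroectodermal differentiation. The genes are Tagln, Acta2, Cnn1, Myl9, Thbs1, Postn, Dcn, Prrx1, Twist2 and Thy1, 10 of the 45321 genes in the count tables. They were chosen as markers of the fibroblast feeder layer and of smooth muscle, with earlier results of these data known. Each was read from its transcript with the highest total count. All 10 passed the filter on low counts and are among the 18273 genes tested. Controls were HM1 (Nup133+/+, XY), sampled as HM1 replicate 1 and HM1 replicate 2, and line 1A4 (Nup133+/+ Sox1gfp/+, XY). The knockout group held lines 14 and 19, both Nup133-/- and labelled XY or likely XY, and line 319, Nup133merm/merm Sox1gfp/+, an XX line with extra copies of chromosomes 8 and 12. Lines 14 and 19 were compared with HM1 as their background and line 319 with line 1A4. Each line is 1 culture lineage, and only HM1 was sampled in replicate, so differences between genotypes include differences between lines. All lines had been grown on mitomycin-treated DR4 mouse embryonic fibroblasts in serum with leukemia inhibitory factor (LIF), and the feeders were taken away by a short plating step before day 0. Day 2 cells had been plated on gelatin in N2B27 without feeders, serum or LIF, and day 3 cells had received retinoic acid for the last 24 h. Each genotype had 3 samples on each day (6 groups), and each sample was sequenced as 4 technical libraries, which were added up.

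The contractile genes encode parts of the actin cytoskeleton of smooth muscle and of activated fibroblasts. Acta2 is smooth muscle alpha-actin, Tagln is the actin-bundling protein SM22, Cnn1 is calponin, which restrains actomyosin, and Myl9 is a regulatory light chain of nonmuscle and smooth muscle myosin. Serum response factor (SRF) with its cofactors of the myocardin family, which sense free actin, drives these genes through CArG boxes. TGF-beta induces these genes in fibroblasts. Thbs1 (thrombospondin) and Postn (periostin) are secreted matricellular proteins, and Dcn (decorin) is a small proteoglycan that binds collagen and TGF-beta. Prrx1 and Twist2 are transcription factors of embryonic mesenchyme. Thy1 (CD90) is a surface protein of fibroblasts and also of neurons.

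Depth ranged from 16466724 gene counts (line 19, day 2) to 54386795 (line 14, day 3). The library of line 19 at day 2 stood apart, since the single transcript Gm42418 took 10.1% of its counts, against at most 1.48% for the top gene of any other sample. Gm42418 was also raised in the day 3 libraries of line 14 (532290 counts) and line 319 (510048 counts). The remaining samples, controls among them, held at most 95179 counts of it. Nup133 lay between 179.5 and 323.4 CPM (counts per 1000000, scaled with TMM) in the controls and between 14.3 and 37.1 CPM in the knockout samples, so the targeted gene matched the labels. The Y-linked gene Eif2s3y did not match them in full. It lay between 54.7 and 146.5 CPM in the controls, at 2.18 to 6.31 CPM in lines 14 and 19, which are labelled XY or likely XY, and at no more than 0.122 CPM in the XX line 319. Pou5f1, which defines embryonic stem cells, lay between 999.3 and 1506 CPM at day 0 and between 71.3 and 237.7 CPM at day 3. Labels do not say that replicates came from separate cultures beyond the word biological. The p-values of the main test set each difference against the spread within groups of these 18 samples. Samples of 1 series on different days were treated as independent there. The p-values do not cover the spread between further lines of a genotype.

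Promoter sequence was looked at for the contractile genes because SRF drives them through CArG boxes. A box outside the windows searched would not be seen. RefSeq windows on GRCm38.p6, from 250 bases before to 50 bases after the annotated start, covered 6 of the 10 genes (Postn, Acta2, Cnn1, Myl9, Prrx1 and Twist2). The windows of the 3 contractile genes in that table are printed 5′ to 3′ on the strand of the gene. Capitals mark matches to the CArG box or to a CArG-like sequence, in which a single base of the A/T core is C or G. The Acta2 window lies at chr19:34255324-34255623 on the minus strand, the Myl9 window at chr2:156775214-156775513 on the plus strand and the Cnn1 window at chr9:22099003-22099302 on the plus strand.
Acta2: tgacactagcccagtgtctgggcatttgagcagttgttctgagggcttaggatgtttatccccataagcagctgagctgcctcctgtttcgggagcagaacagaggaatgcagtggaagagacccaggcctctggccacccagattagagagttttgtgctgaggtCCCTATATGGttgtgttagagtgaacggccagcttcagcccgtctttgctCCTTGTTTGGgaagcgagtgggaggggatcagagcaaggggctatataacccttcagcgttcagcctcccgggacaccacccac
Myl9: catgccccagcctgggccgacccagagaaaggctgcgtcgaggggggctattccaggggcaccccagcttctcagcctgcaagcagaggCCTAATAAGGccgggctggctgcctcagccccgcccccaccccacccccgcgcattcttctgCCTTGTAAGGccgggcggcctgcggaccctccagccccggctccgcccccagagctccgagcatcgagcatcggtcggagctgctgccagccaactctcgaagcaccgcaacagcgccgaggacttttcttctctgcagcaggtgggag
Cnn1: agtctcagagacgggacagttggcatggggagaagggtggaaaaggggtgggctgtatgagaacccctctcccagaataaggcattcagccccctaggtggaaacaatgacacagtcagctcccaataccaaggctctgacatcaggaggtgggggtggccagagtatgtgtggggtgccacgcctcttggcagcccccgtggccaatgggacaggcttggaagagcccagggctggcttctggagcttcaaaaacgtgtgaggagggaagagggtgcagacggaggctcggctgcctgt
Myl9 held the CArG box CCTAATAAGG, 161 to 152 bases before the RefSeq start, and the CArG-like sequence CCTTGTAAGG, 99 to 90 bases before it. Acta2 held the CArG-like sequences CCCTATATGG, 84 to 75 bases before the start, and CCTTGTTTGG, 34 to 25 bases before it. The Cnn1, Postn, Prrx1 and Twist2 windows held neither. Both motifs read the same on either strand and do not overlap each other in definition. A CArG box was present in 1.63% of the 32851 mouse promoter windows and a CArG-like sequence in 8.5%. The Acta2 transcript that was counted starts 217 bases upstream of the RefSeq start, and that of Myl9 starts 44 bases upstream.

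Tagln (ENSMUST00000034590, chromosome 9: 45929619 to 45936058, minus strand, GRCm38, 5 exons) was the most abundant of the contractile genes at day 0. Per kilobase of transcript, its control level at day 0 was 60.6 ± 27.4 CPM (SD, n = 3), against 23.4 ± 12.1 for Acta2, 17.5 ± 8.1 for Myl9 and 6.31 ± 3.35 for Cnn1. The ranges of Acta2 (9.49 to 31.2) and Myl9 (9.02 to 25.1) overlapped over the control samples, and the highest Cnn1 value (8.83) lay below both. In HM1 replicate 1, HM1 replicate 2 and line 1A4, Tagln stood at 112.4, 130.2 and 47.2 CPM at day 0, at 52.6, 66.3 and 84.1 CPM at day 2, and at 81.1, 101.3 and 145.4 CPM at day 3. Lines 14, 19 and 319 stood at 42.0, 30.8 and 11.8 CPM, then at 21.8, 29.3 and 5.49 CPM, and then at 39.2, 28.3 and 19.8 CPM. No knockout sample reached a control sample of the same day, and line 319 was the lowest sample on each day. Group means were 3.43-fold lower in the knockout at day 0, 3.58-fold at day 2 and 3.75-fold at day 3. Tagln was called lower at day 2 (log2 fold change -2.07 ± 0.50 SE, adjusted p 0.0488, edgeR quasi-likelihood test) and at day 3 (-2.06 ± 0.49, adjusted p 0.0258). At day 0 its value was -1.80 ± 0.48, with an adjusted p of 0.108. The day 2 call was lost whenever any 1 of the 6 series was left out (adjusted p 0.0569 to 0.204), and the day 3 call when any but line 319 was left out (0.0701 to 0.110). Without line 1A4 the values were -1.42 at day 2 and -1.16 at day 3, and without line 319 the day 2 value was -1.39. The day 0 difference was called without line 1A4 (-1.78, adjusted p 0.0168) and in the HM1-derived samples alone (-1.73, adjusted p 0.0106). These fits make nearly the same comparison, since without line 1A4 the average level of line 319 is taken up by the term for background. Exons of Pcsk7 and Gm48529 overlap Tagln on the opposite strand. Whether opposite-strand reads entered the Tagln counts was not tested. Gm29233, with exons that overlap those of Thbs1 on the other strand, held 7 counts in all samples against 55994 for Thbs1. So at most 7 reads of Thbs1 were counted for Gm29233.

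Acta2 (ENSMUST00000039631, chromosome 19: 34241090 to 34255590, minus strand, 9 exons) gave the largest difference among the abundant members. Of its windows of 50 bases, 0.352% also occur in another gene, all of them in Actg1 and actin pseudogenes. The controls stood at 60.3, 63.5 and 19.3 CPM at day 0, at 28.6, 66.3 and 44.9 CPM at day 2, and at 49.1, 85.4 and 74.0 CPM at day 3, in the same order of series. The knockout lines 14, 19 and 319 stood at 30.1, 16.5 and 9.18 CPM at day 0, at 7.39, 8.60 and 2.12 CPM at day 2, and at 11.7, 6.90 and 3.42 CPM at day 3. At day 0 the groups overlapped, because line 1A4 lay below line 14. At days 2 and 3 they were apart, with the highest knockout sample under every control sample. Knockout means were 7.72-fold lower at day 2 (46.6 ± 18.9 against 6.04 ± 3.45 CPM) and 9.48-fold lower at day 3 (69.5 ± 18.5 against 7.33 ± 4.15 CPM). The log2 fold change was -1.33 ± 0.44 at day 0 (adjusted p 0.212), -3.16 ± 0.48 at day 2 (adjusted p 0.00543) and -3.45 ± 0.48 at day 3 (adjusted p 0.00171, edgeR). The day 3 call held in each of the 15 other settings run, and its value without line 1A4 was -2.82 (adjusted p 0.00750). The day 2 call was lost without HM1 replicate 2 (-3.08, adjusted p 0.0796) and when day 2 was fitted alone (adjusted p 0.291). In bulk RNA, fewer cells that express a gene and less of its RNA per cell cannot be told apart.

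Cnn1 and Myl9 were lowest in line 319 on each day and were not called between genotypes. Cnn1 (ENSMUST00000001384, chromosome 9: 22099268 to 22109630, plus strand, 7 exons) stood at 21.03, 18.1 and 5.98 CPM in the day 0 controls and at 5.21, 5.58 and 1.77 CPM in lines 14, 19 and 319. At day 2 the controls stood at 45.3, 39.5 and 47.9 CPM and the knockout lines at 26.3, 38.4 and 5.53 CPM, and at day 3 the values were 24.2, 25.2 and 37.9 CPM against 12.5, 9.61 and 8.46 CPM. Every knockout sample lay below every control sample on each day, but line 19 at day 2, the library that stood apart, was within 1.10-fold of HM1. The log2 fold change was -1.84 ± 0.50 at day 0 (adjusted p 0.113), -1.15 ± 0.49 at day 2 (adjusted p 0.204) and -1.63 ± 0.49 at day 3 (adjusted p 0.0650, edgeR), so Cnn1 was not called. Among the 15 other settings it was called in 4 at day 0, in 0 at day 2 and in 5 at day 3. At day 0 these included the edgeR fit without line 1A4 (-1.91, adjusted p 0.0354). At day 3 they included the edgeR fits without line 319 (-1.46, adjusted p 0.0443) and without line 19 at day 2 (-1.63, adjusted p 0.0308).

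Myl9 (ENSMUST00000088552, chromosome 2: 156775420 to 156781658, plus strand, 4 exons) stood at 28.3, 20.6 and 10.2 CPM in the day 0 controls and at 14.6, 14.9 and 3.12 CPM in lines 14, 19 and 319. At day 2 the controls stood at 53.8, 52.9 and 65.5 CPM, lines 14 and 19 at 50.9 and 70.6 CPM, and line 319 at 4.28 CPM. At day 3 they stood at 39.8, 42.1 and 46.3 CPM against 37.9, 30.7 and 13.6 CPM. Line 319 was thus 15.3-fold below line 1A4 at day 2, while line 14 was 1.05-fold below HM1 and line 19 above it. The line 19 value is that of the library that stood apart. Myl9 was not called between genotypes and its absolute log2 fold change stayed under 1 on each day. The heat map of lines shows this pattern beside that of Acta2, which was lower in each of the 3 lines.

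**Figure D1:**
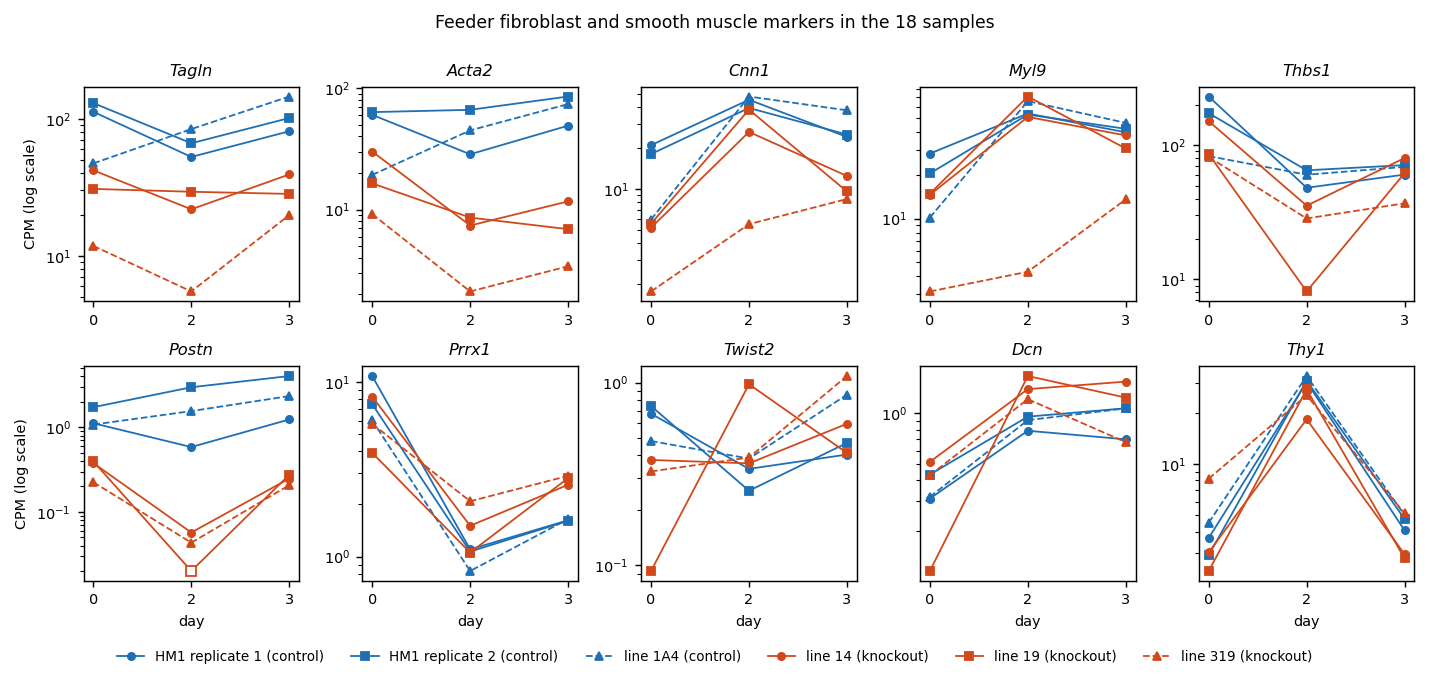
Level of each of the 10 genes in the 18 samples, as CPM on a log axis (vertical) against day (horizontal), with 1 line per series; blue series are controls and orange series are knockout, and dashed lines with triangles are the blastocyst-derived lines 1A4 and 319. The open square in the Postn panel is line 19 at day 2, which held 0 counts and is drawn at the bottom of the panel. Tagln, Cnn1 and Postn separate by genotype on each day, and Acta2 does at days 2 and 3. Prrx1 and Thy1 move mostly with the day, though the genotypes are apart for Thy1 at day 2 and for Prrx1 at day 3.

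Postn (ENSMUST00000107985, chromosome 3: 54361109 to 54391037, plus strand, 22 exons), a matrix protein of periosteum and healing tissue, was rare but separated the genotypes on each day. The controls stood at 1.12, 1.73 and 1.08 CPM at day 0, at 0.584, 2.98 and 1.56 CPM at day 2, and at 1.24, 4.04 and 2.34 CPM at day 3. Lines 14, 19 and 319 stood at 0.377, 0.395 and 0.224 CPM at day 0 and at 0.248, 0.275 and 0.207 CPM at day 3. At day 2 these lines held 3, 0 and 1 counts of Postn, while the controls held 26, 128 and 77. Pooled, the 4 knockout counts amount to 0.0449 CPM, which is 37.9-fold below the control mean, and the exact 95% Poisson interval of those counts gives 14.8-fold to 139.3-fold (counting error only). Line 19 with its 0 counts was at least 6.40-fold below the mean of both HM1 replicates by the same exact 95% interval. With 3 counts taken as the limit of line 19, as in the heat map of lines, the bound is 7.87-fold. These bounds and the pooled interval take the control mean as fixed. They leave out the spread of the day 2 controls, from 0.584 to 2.98 CPM, and the lower of these is an HM1 replicate. The mean was 3.94-fold lower in the knockout at day 0 and 10.4-fold lower at day 3. The log2 fold change was -1.99 ± 0.55 at day 0 (adjusted p 0.115), -5.21 ± 0.76 at day 2 (adjusted p 0.00398) and -3.38 ± 0.57 at day 3 (adjusted p 0.00539, edgeR). The fitted day 2 value depends on how the near-empty libraries are treated and is not a measured fold. Without HM1 replicate 2 it was -4.44 (adjusted p 0.0273). With the longest transcript in its place, the day 2 call was lost (-6.25, adjusted p 0.0676) and the day 3 value was -6.97 (adjusted p 0.0137). Without HM1 replicate 1 the day 0 difference was called (-2.18, adjusted p 0.0411), and without HM1 replicate 2 the day 3 call was lost (-2.79, adjusted p 0.0630). Against the control of its own background, Postn was lower in each line on each day.

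Thbs1 (ENSMUST00000039559, chromosome 2: 118111876 to 118127133, plus strand, 22 exons) held the most counts of the 10 genes. At day 0 the controls stood at 230.8, 173.4 and 83.1 CPM and lines 14, 19 and 319 at 151.2, 86.0 and 81.8 CPM, and the groups overlapped. At day 2 the controls stood at 48.2, 65.1 and 60.3 CPM and the knockout lines at 35.5, 8.14 and 28.5 CPM, the lowest value being that of the library that stood apart. At day 3 the controls stood at 60.5, 71.2 and 69.0 CPM and the knockout lines at 80.4, 62.0 and 36.95 CPM, which overlapped again. The day 2 log2 fold change was -1.24 ± 0.43 and was not called (adjusted p 0.132, edgeR), and at days 0 and 3 it was under 1 in size.

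Dcn (ENSMUST00000105287, chromosome 10: 97479609 to 97518143, plus strand, 8 exons), which is abundant in cultured fibroblasts, was near the limit of measurement here. It stood at 0.312, 0.432 and 0.319 CPM in the day 0 controls and at 0.514, 0.116 and 0.428 CPM in lines 14, 19 and 319. At day 2 the controls stood at 0.786, 0.953 and 0.909 CPM and the knockout lines at 1.39, 1.66 and 1.21 CPM, so each knockout sample lay above each control. At day 3 the values were 0.700, 1.07 and 1.07 CPM against 1.54, 1.24 and 0.673 CPM, and the groups overlapped. Dcn was called between genotypes on no day, and its log2 fold change was under 1 in size on each.

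Prrx1 (ENSMUST00000075805, chromosome 1: 163245119 to 163313672, minus strand, 5 exons), a homeobox factor of limb and craniofacial mesenchyme, did not follow the contractile genes. At day 0 the controls stood at 10.8, 7.45 and 6.02 CPM and lines 14, 19 and 319 at 8.23, 3.93 and 5.75 CPM. At day 2 the controls stood at 1.10, 1.07 and 0.828 CPM against 1.502, 1.06 and 2.07 CPM, and at day 3 at 1.61, 1.603 and 1.64 CPM against 2.58, 2.82 and 2.90 CPM. At day 3 every knockout sample was above every control sample, and the means were 1.62 ± 0.02 and 2.76 ± 0.17 CPM. Prrx1 was not called between genotypes and its log2 fold change was under 1 in size on each day.

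Twist2 (ENSMUST00000007949, chromosome 1: 91801461 to 91848028, plus strand, 2 exons), a basic helix-loop-helix factor of dermal and skeletal precursors, held 338 counts in the 18 samples together. At day 0 the controls stood at 0.676, 0.745 and 0.479 CPM and lines 14, 19 and 319 at 0.377, 0.0930 and 0.326 CPM, which do not overlap. At day 2 the values were 0.337, 0.256 and 0.384 CPM against 0.361, 0.9802 and 0.389 CPM, and at day 3 they were 0.404, 0.468 and 0.859 CPM against 0.595, 0.412 and 1.09 CPM. Line 19 was the lowest sample at day 0 and the highest at day 2, in the library that stood apart. The day 0 log2 fold change was -1.35 ± 0.52 and was not called (adjusted p 0.315, edgeR).

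Thy1 (ENSMUST00000114840, chromosome 9: 44043384 to 44048579, plus strand, 4 exons) had a peak at day 2 in both genotypes. The controls stood at 3.67, 2.91 and 4.51 CPM at day 0, at 30.2, 30.8 and 32.8 CPM at day 2, and at 4.06, 4.74 and 4.998 CPM at day 3. Lines 14, 19 and 319 stood at 3.02, 2.35 and 8.18 CPM, at 18.3, 27.4 and 25.2 CPM, and at 2.94, 2.78 and 5.12 CPM. At day 2 every knockout sample lay below every control sample, while the groups overlapped at days 0 and 3. The difference between genotypes was not called on any day and was under 1 on the log2 scale.

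Between genotypes, 0 of the 10 genes were called at day 0, 3 were called lower at day 2 and the same 3 lower at day 3, namely Tagln, Acta2 and Postn (edgeR). Over all genes tested, 0.788% were called lower at day 0, 0.963% at day 2 and 2.45% at day 3. At an unadjusted p below 0.05 there were 5 of the 10 genes on each day, where 10.6%, 20.4% and 21.9% of all genes tested were on days 0, 2 and 3. On the same days DESeq2 called 3, 3 and 4 of them, and 3.2%, 8.13% and 11.3% of all genes with an adjusted p. Their median log2 fold change on the same days was -1.15, -1.03 and -0.64, where the median of all genes was 0.01, 0.02 and 0.02. Every knockout sample lay below every control sample for 4 members at day 0, 6 at day 2 and 5 at day 3, and the same holds for 9.7%, 11.7% and 17.6% of all genes tested. Every knockout sample lay above every control sample for Dcn at day 2 and Prrx1 at day 3, as for 9.94% of all genes at day 2 and 17.6% at day 3. The 3 days use separate libraries of the same lines, so a difference between lines is repeated in each of them. Because the genes were chosen with earlier results of these data known, the shares of all genes beside them are a description.

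**Figure D2:**
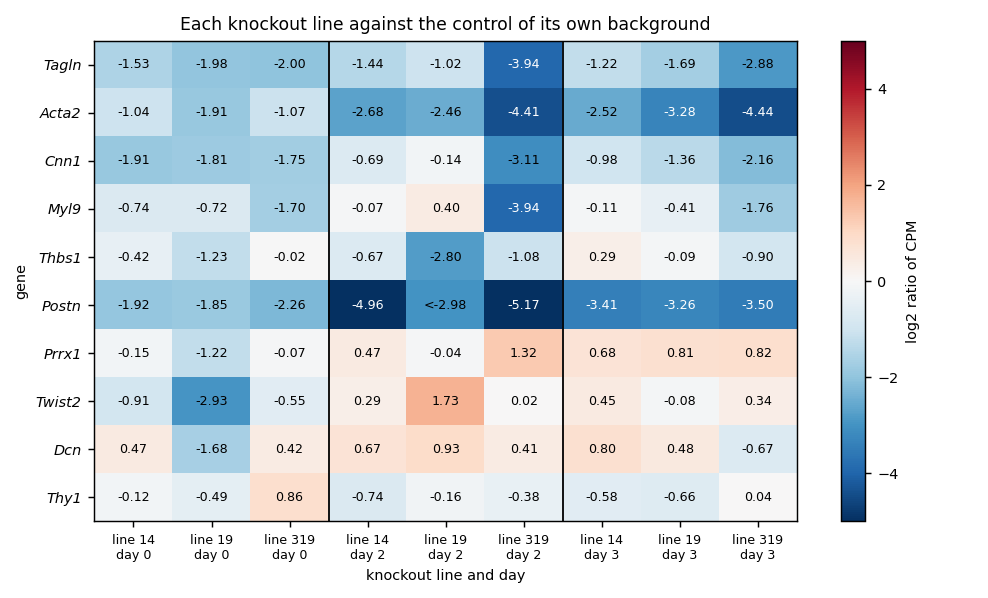
Heat map of the log2 ratio of CPM of each knockout line to the control of its own background (mean of both HM1 replicates for lines 14 and 19, line 1A4 for line 319), with genes in rows and line and day in columns; blue is lower and red higher in the knockout line, and < marks an upper bound where the line held 0 counts. Tagln, Acta2, Postn and Cnn1 are blue in all 9 columns, and Myl9 at day 2 runs from -3.94 in line 319 to 0.40 in line 19. The day 2 library of line 19 stood apart by its share of Gm42418.

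From day 0 to day 2, serum and LIF were withdrawn. In the controls 6 of the 10 genes were called in this step, 4 higher and 2 lower, where 19.7% of all genes had a call upwards and 15.5% downwards. Thy1 rose most (log2 fold change 3.11 ± 0.30, adjusted p 3.98e-06), followed by Myl9 (1.80 ± 0.59, adjusted p 0.0254), Cnn1 (1.73 ± 0.49, adjusted p 0.0126) and Dcn (1.31 ± 0.44, adjusted p 0.0291). Prrx1 fell by 3.01 ± 0.32 on the log2 scale (adjusted p 8.30e-06) and Thbs1 fell by 1.43 ± 0.43 (adjusted p 0.0172, edgeR). Twist2 had a value of -1.01 ± 0.50 (adjusted p 0.130). Tagln, Acta2 and Postn were not called in this step in the controls. Line 1A4 and HM1 differed in it, since Tagln went from 47.2 to 84.1 CPM in line 1A4 and from 112.4 to 52.6 and 130.2 to 66.3 CPM in the HM1 replicates. Several of these calls needed all samples. Dcn lost its call without any 1 of the control series (adjusted p 0.132 to 0.152) and so did Myl9 (0.0618 to 0.0857, with a value of 1.12 without line 1A4), which also lost it without line 14 (0.0547). Thbs1 lost it without HM1 replicate 1 (-0.97, adjusted p 0.25) or HM1 replicate 2 (adjusted p 0.117), and Cnn1 lost it without line 1A4 (1.11, adjusted p 0.0656). Twist2 was called without line 19 (-0.99, adjusted p 0.0388).

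In the knockout lines 8 of the 10 genes were called from day 0 to day 2, 4 higher and 4 lower, where 20.8% of all genes were called higher and 15.1% lower. Thy1 rose by 2.51 ± 0.30 (log2; adjusted p 1.75e-05), Cnn1 by 2.42 ± 0.51 (adjusted p 0.00180), Dcn by 2.00 ± 0.44 (adjusted p 0.00255) and Myl9 by 1.85 ± 0.59 (adjusted p 0.0225). Thbs1 fell by 2.08 ± 0.44 (adjusted p 0.00183), Prrx1 by 1.92 ± 0.31 (adjusted p 2.55e-04), Acta2 by 1.66 ± 0.46 (adjusted p 0.0107) and Postn by 2.84 ± 0.84 (adjusted p 0.0158, edgeR). Twist2 had a value of 1.07 ± 0.55 (adjusted p 0.142). Postn lost its call without any 1 of the knockout lines (adjusted p 0.0598 to 0.112), Myl9 without line 14 (0.112) or line 19 (0.120), and Acta2 without line 14 (-1.40, adjusted p 0.0963). The rise of Thy1 was 3.09 without line 319 (adjusted p 2.56e-06). Without the day 2 library of line 19 alone, Myl9 was at 1.37 (adjusted p 0.0945).

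From day 2 to day 3, in retinoic acid, 1 of the 10 genes was called in the controls. Thy1 fell by 2.77 ± 0.30 on the log2 scale (adjusted p 1.26e-05), against a background of 12.5% of all genes with a call upwards and 8.92% downwards. Among knockout samples 3 members were called, 2 higher and 1 lower, where 17.6% of all genes were called higher and 16.0% lower. Thy1 fell by 2.76 ± 0.30 (adjusted p 1.04e-05), Thbs1 rose by 1.24 ± 0.43 (adjusted p 0.0372) and Postn rose by 2.41 ± 0.86 (adjusted p 0.0426), from its 4 counts at day 2. Cnn1 had a value of -1.03 ± 0.49 (adjusted p 0.114, edgeR), and was called without line 319 (-1.54, adjusted p 0.0141). Prrx1, not called here, was called with a replicate block for each series (0.88, adjusted p 0.0334). The Thbs1 rise was 0.78 without the day 2 library of line 19 and was not called (adjusted p 0.0806). It lost its call without any 1 of the series but line 319 (adjusted p 0.0504 to 0.0973). The Postn rise lost its call without line 1A4 (adjusted p 0.0805) or any 1 of the knockout lines (0.130 to 0.169). Both steps use the day 2 samples, so a low day 2 value enters them with opposite sign.

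The difference between genotypes in these steps was tested directly and 0 of the 10 genes were called in either, where 0.0219% and 0.0383% of all genes were called in either direction. At an unadjusted p below 0.05 there were 4 members in the first step and 0 in the second, against 7.16% and 8.9% of all genes, and DESeq2 called 0 in both. In the first step the values were -3.22 ± 0.98 for Postn (adjusted p 0.491), 2.08 ± 0.74 for Twist2 (adjusted p 0.539), -1.83 ± 0.63 for Acta2 (adjusted p 0.539) and 1.09 ± 0.43 for Prrx1 (adjusted p 0.600). In the second step they were 1.83 ± 1.00 for Postn (adjusted p 0.582) and 1.03 ± 0.60 for Thbs1 (adjusted p 0.587, edgeR).

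Ratios within a sample do not depend on its scaling and were compared between days and genotypes. In the day 0 controls there were 13.8 to 23.3 counts of Thbs1 per count of Prrx1, and 14.2 to 21.9 in the day 0 knockout samples. At day 2 this ratio was 43.8 to 72.8 in the controls and 7.71 to 23.6 in the knockout lines. At day 3 it was 37.5 to 44.4 and 12.8 to 31.2, so the genotypes overlapped at day 0 and not later. Thbs1 itself overlapped at day 3, with a mean 1.12-fold lower in the knockout. Prrx1 was higher in every knockout sample at day 3 (1.71-fold in the means), which lowers each ratio to it. The value of 7.71 is that of line 19 and rests on 14 counts of Prrx1. Acta2 per Prrx1 was 3.21 to 8.53 and 1.596 to 4.19 at day 0. By day 2 it was 25.9 to 62.0 in the controls and 1.02 to 8.14 in the knockout lines, and at day 3 it was 30.4 to 53.3 and 1.18 to 4.53. Tagln per Prrx1 was 7.84 to 17.5 in the day 0 controls, 47.8 to 101.6 at day 2 and 50.2 to 88.7 at day 3, against 2.05 to 7.83, 2.65 to 27.8 and 6.84 to 15.2 in the knockout lines. The contractile genes also shifted among themselves. Cnn1 per Tagln was 0.127 to 0.187 in the day 0 controls and 0.124 to 0.181 in the day 0 knockout lines, and at day 2 it was 0.569 to 0.861 and 1.01 to 1.31. Acta2 per Tagln was 0.409 to 0.537 in the day 0 controls and 0.535 to 0.777 in the day 0 knockout lines, and at day 3 it was 0.509 to 0.843 and 0.172 to 0.298. These ranges are a description with no test.

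**Figure D3:**
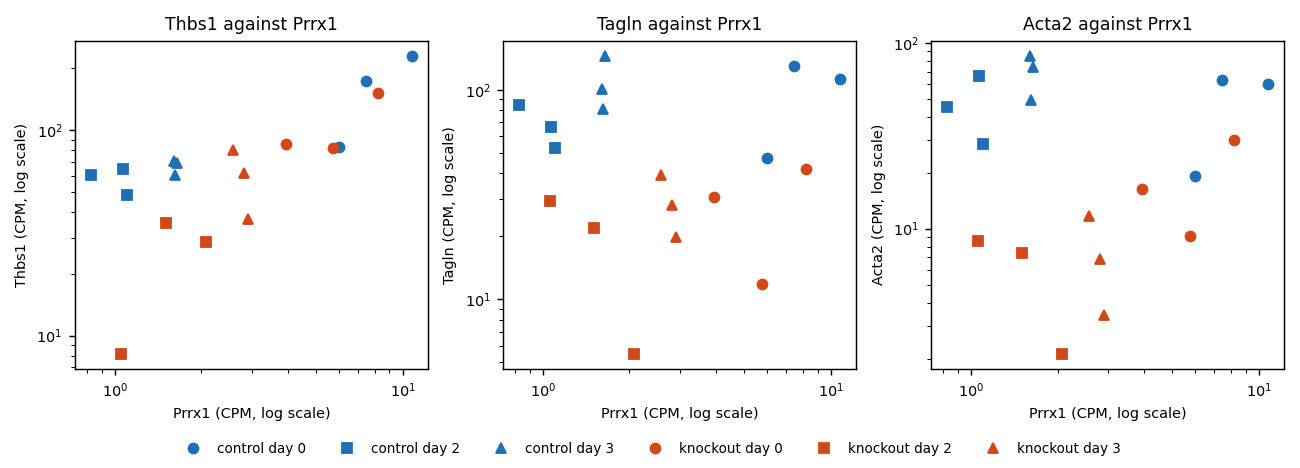
CPM of Thbs1, Tagln and Acta2 (vertical) against CPM of Prrx1 (horizontal) in the 18 samples, both on log axes, with controls in blue, knockout samples in orange, and circles, squares and triangles for days 0, 2 and 3. At days 2 and 3 the control samples lie at 52.6 to 145.4 CPM of Tagln and 28.6 to 85.4 CPM of Acta2 with at most 1.64 CPM of Prrx1, and the knockout samples lie below and mostly to the right of them.

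The list of 23 other fibroblast markers (collagens, Lum, Fbn1, Pdgfra, Fap and others) had 21 genes tested. At day 0, 0 were called by edgeR and 20 of 21 had values below 0 (48.3% of all genes did), with a median of -0.35 on the log2 scale. There 6 had an unadjusted p below 0.05 and DESeq2 called 1, against 10.6% and 3.2% of all genes. At days 2 and 3, 0 were called lower. In either direction, 6 and 10 had an unadjusted p below 0.05, against 20.4% and 21.9% of all genes. DESeq2 called 3 and 7, against 8.13% and 11.3% of all genes. At day 2 and again at day 3, 2 were called higher, and these were S100a4 and Pdgfra, where 0.635% of all genes were called higher at day 2 and 2.75% at day 3. Pdgfra, a growth factor receptor of mesenchyme and of primitive endoderm, stood at 1.33 to 1.596 CPM in the day 2 controls and 1.81 to 5.49 CPM in the knockout lines (1.47 ± 0.32, adjusted p 0.0320), and at 3.78 to 4.09 against 9.58 to 11.6 CPM at day 3 (1.45 ± 0.30, adjusted p 0.0150, edgeR). S100a4, a calcium-binding protein of motile fibroblasts, had values of 2.01 ± 0.46 at day 2 (adjusted p 0.0394) and 1.88 ± 0.49 at day 3 (adjusted p 0.0387). Each of these calls was lost without HM1 replicate 1 or without HM1 replicate 2 (adjusted p 0.121 to 0.283). The summed level of the list was 392.4 to 786.2 CPM in the day 0 controls and 336.1 to 545.4 CPM in the knockout lines, 265.6 to 322.8 against 272.2 to 364.0 CPM at day 2, and 558.4 to 631.4 against 518.4 to 684.3 CPM at day 3. Levels within the list were uneven. Fstl1 reached 156.2 CPM, Col1a1 97.1, Col5a1 90.6 and Fbln2 85.0 CPM in their highest sample, while Lum and Fap reached at most 0.234 and 0.440 CPM. The part of feeder cells in the differences of Tagln, Acta2 and Postn was not tested.

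The same list followed the days. From day 0 to day 2, 14 of its 21 tested genes were called lower and 1 higher in the controls, and 9 lower and 1 higher in the knockout lines. The gene that rose in both was Mmp2, a matrix protease (1.22 ± 0.19 in the controls and 2.08 ± 0.19 in the knockout lines). Over all genes, 15.5% were called lower and 19.7% higher in this step in the controls, and 15.1% and 20.8% in the knockout lines. From day 2 to day 3, 8 of the list were called higher in the controls and 11 in the knockout lines, with 0 called lower in either. Over all genes, 12.5% and 17.6% were called higher in that step, and 8.92% and 16.0% lower. Col1a1, the main fibrillar collagen, stood at 38.1 to 60.5 CPM in the day 0 controls, 21.2 to 34.0 CPM at day 2 and 57.9 to 97.1 CPM at day 3, on gelatin without feeders.

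Among 12 mesenchymal transcription factors other than Prrx1 and Twist2, 11 were tested. At day 0, 0 were called by edgeR and the median log2 fold change was 0.05. There 1 had an unadjusted p below 0.05 and DESeq2 called 1, against 10.6% and 3.2% of all genes. At day 2, 11 of 11 had values above 0 and 1 was called higher. At day 3, 11 of 11 had values above 0 and 2 were called higher. The medians on these days were 0.91 and 0.87. Over all genes, 51.3% and 51.7% had values above 0 on days 2 and 3, and 0.635% and 2.75% were called higher. Tbx15, a T-box factor of mesenchyme, was at 0.581 to 0.876 CPM in the day 2 controls and 1.69 to 2.51 CPM in the knockout lines (1.54 ± 0.34, adjusted p 0.0336), and was called at day 3 too (1.52 ± 0.32, adjusted p 0.0153). Osr2, a zinc-finger factor of palate and limb, was called higher at day 3 (2.15 ± 0.49, adjusted p 0.0223, edgeR). The 3 calls were lost without HM1 replicate 1 or without HM1 replicate 2 (adjusted p 0.133 to 0.259). In the controls 5 of the 11 were called lower and 1 higher from day 0 to day 2, and 6 higher from day 2 to day 3. In the knockout lines 2 were called lower and 2 higher, and then 7 higher. Over all genes, 15.5% and 15.1% were called lower and 19.7% and 20.8% higher in the first step, in controls and knockout lines. In the second step 12.5% and 17.6% of all genes were called higher. Meox1, a factor of somites, rose by 4.91 ± 0.69 from day 2 to day 3 in the controls and by 5.501 ± 0.70 in the knockout lines.

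Of the other 15 smooth muscle and contractile genes, 1 was called lower in the knockout at day 0, 0 were called at day 2 and 2 were called lower at day 3, with medians of -0.52, -0.34 and -0.13. Over all genes tested, 0.788%, 0.963% and 2.45% were called lower and 48.3%, 48.7% and 48.3% had values below 0 on these days. At day 0, 12 of 15 had values below 0. The gene called was Myocd, the SRF cofactor myocardin, at 0.160 to 0.505 CPM in the controls and 0.0612 to 0.0697 CPM in the knockout lines (-2.29 ± 0.49, adjusted p 0.0368). That call rests on 14, 21 and 4 counts in the controls and 2, 3 and 3 counts in lines 14, 19 and 319. Myocd overlapped between genotypes at day 3, at 0.312 to 0.868 CPM in the controls and 0.612 to 0.828 CPM in the knockout lines. At day 2, 13 of 15 had values below 0 and 0 were called by edgeR. There 5 had an unadjusted p below 0.05 and DESeq2 called 2, against 20.4% and 8.13% of all genes. At day 3, 10 of 15 had values below 0 and 2 were called lower. These were smoothelin (Smtn, -0.76 ± 0.14, adjusted p 0.00746) and Tagln2, a relative of Tagln found in most cells (-0.72 ± 0.19, adjusted p 0.0424, edgeR). Smtn stood at 50.8 to 64.7 CPM in the day 3 controls and 31.8 to 40.8 CPM in the knockout lines. Without either HM1 replicate these calls were lost (adjusted p 0.0965 to 0.382). From day 0 to day 2, 6 of the 15 were called higher and 0 lower in the controls, and 7 higher and 1 lower in the knockout lines. Over all genes, 19.7% and 20.8% were called higher in this step, and 15.5% and 15.1% lower. Myh11, the myosin heavy chain of mature smooth muscle, did not exceed 2.96 CPM in any sample, and Actg2 did not exceed 0.789 CPM.

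Of 12 targets of SRF, YAP or actin signalling, 1 was called lower at day 0, 0 at day 2 and 3 at day 3, and 0 were called higher. Over all genes tested, 0.788%, 0.963% and 2.45% were called lower on these days. At day 2, 6 of the 12 had an unadjusted p below 0.05 and DESeq2 called 4, against 20.4% and 8.13% of all genes. Acta1, skeletal alpha-actin, stood at 12.4, 20.3 and 2.43 CPM in the day 0 controls and at 1.13, 1.56 and 0.143 CPM in lines 14, 19 and 319. It was called lower at day 0 (-3.61 ± 0.73, adjusted p 0.0235) and at day 3 (-3.11 ± 0.69, adjusted p 0.0195). The others called at day 3 were Ccn1, a matricellular protein (-1.45 ± 0.36, adjusted p 0.0308), and Actg1, a cytoplasmic actin (-0.72 ± 0.19, adjusted p 0.0393, edgeR). These calls were lost without either HM1 replicate (adjusted p 0.0691 to 0.220). The list's median on days 0, 2 and 3 was -0.23, -0.52 and -0.63. Of 12 TGF-beta genes, Tgfb2, which encodes a ligand, was called lower at day 0 (-1.85 ± 0.31, adjusted p 0.00813) and at day 2 (-2.32 ± 0.33, adjusted p 0.00314, edgeR). At day 3, 0 of these 12 were called by edgeR. There 5 had an unadjusted p below 0.05 and DESeq2 called 1, against 21.9% and 11.3% of all genes. The day 0 call of Tgfb2 was lost without HM1 replicate 2 (-1.603, adjusted p 0.143) or line 14 (-1.90, adjusted p 0.0993). Tgfb2 stood at 3.55 to 7.26 CPM in the day 0 controls and 1.20 to 1.68 CPM in the knockout lines.

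**Figure D4:**
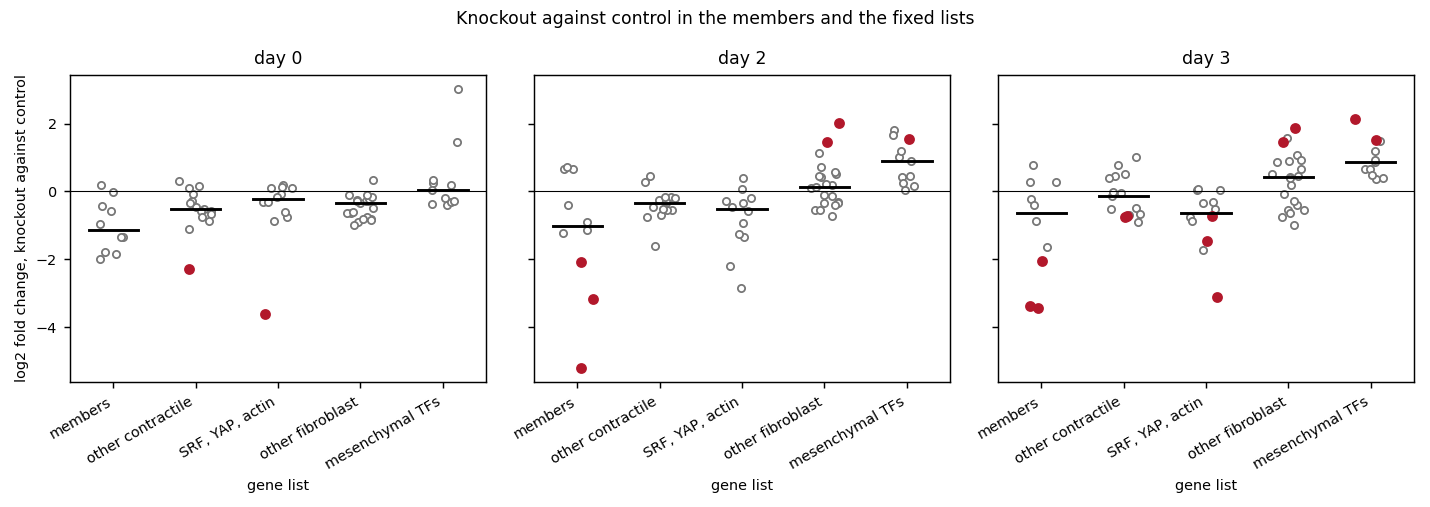
Log2 fold change of the knockout against the control (vertical) for each tested gene of the 10 markers and of the lists of other contractile genes, SRF, YAP and actin-response targets, other fibroblast markers and mesenchymal transcription factors (horizontal), in 1 panel per day; filled red points are genes called at an adjusted p below 0.05, open points are not called, and bars are medians. The contractile and SRF lists have medians below 0 on each day, and the mesenchymal transcription factors lie above 0 at days 2 and 3.

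Markers of other cells that the cultures could hold were read in the same fit. Over all genes tested, 0.788%, 0.963% and 2.45% were called lower on days 0, 2 and 3. The share called higher was 0.635% at day 2 and 2.75% at day 3. Of 9 early mesoderm genes 8 were tested, and 2 were called lower at day 0 (T, -3.72 ± 0.55, and Mixl1, -4.21 ± 0.40), 2 at day 2 (T, -3.08 ± 0.58, and Kdr, -2.31 ± 0.46) and 1 at day 3 (Kdr, -1.98 ± 0.38). The summed level of that list at day 0 was 55.3 to 107.1 CPM in the controls and 20.7 to 22.2 CPM in the knockout lines, and its part in the differences of the members was not tested. Of 11 tested genes of primitive and parietal endoderm, Foxa2 was called lower at day 0 (-1.99 ± 0.39) and Gata4 higher at day 3 (1.36 ± 0.31). Of 5 tested endothelial genes, Esam was called higher at day 2 (2.08 ± 0.41). Of 6 macrophage and leukocyte genes only Cd68 passed the filter, and it was called lower at day 3 (-1.16 ± 0.29), while Tyrobp did not exceed 0.0432 CPM and Adgre1 did not exceed 0.0992 CPM. Of 7 neuronal genes Rbfox3 was called lower at day 2 (-1.24 ± 0.28), of 5 tested trophoblast genes Cdx2 was called higher at day 3 (3.26 ± 0.89), and of 8 embryonic stem cell genes Sox2 was called higher at day 2 (0.83 ± 0.16) and Tdgf1 lower at day 3 (-2.55 ± 0.68, edgeR). Of the 29 calls between genotypes in the lists beside the members, 27 were lost without HM1 replicate 1 or without HM1 replicate 2. The exceptions, called in every fit that left out a series, were Mixl1 at day 0 and Tgfb2 at day 2. Cdx2 rested on line 319, without which its value was 0.68 (adjusted p 0.393).

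By Pearson's r of log2 CPM over the 18 samples, the 5 genes most like the mean of the 4 contractile members were Acta1 (r 0.955), the cardiac actin Actc1 (0.937), the tropomyosin Tpm1 (0.926), the calponin Cnn2 (0.924) and Srp68, a subunit of the signal recognition particle (0.923). With the day means taken out, the values were 0.967, 0.941, 0.927, 0.914 and 0.934. Most like the mean of the other 6 members were Ctrc (r 0.802), Usp18 (0.770), Serpinb6b (0.754), A530072M11Rik (0.753) and Tuba8 (0.742), which averaged 0.219 to 0.547 CPM. Pairs of these 6 members ranged from an r of -0.702 (Prrx1 and Thy1) to 0.698 (Thbs1 and Prrx1), so their mean is not a shared pattern. All these values describe 18 samples that share lines, genotype and day, and the genes listed as most like a mean were the highest of all those tested.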

How the data were processed

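RNA from 18 biological samples (3 control and 3 Nup133 knockout series at days 0, 2 and 3) was sequenced, each as 4 technical libraries. The authors deposited raw counts per Ensembl transcript, per the file headers. The submitters' processing notes name bcl2fastq 2.17.1.14, STAR 2.4.0k, SAMtools, HTSeq and mm10, without roles; which annotation release was counted and whether strand was used is not given in the sources used here. The 4 technical libraries were added up (their counts differed by about sampling noise, with a chi-square per degree of freedom of 1.01 to 1.03). Of 110379 transcripts, 108214 matched the GENCODE annotation of GRCm38, and the rest (1.44% to 2.46% of counts) were left out. Each gene was read from its transcript with the highest total count, and reads of other transcripts were not used.

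Counts were scaled with TMM and filtered with filterByExpr, which left 18273 genes. The main test was edgeR 4.0.16 (R 4.3.3) quasi-likelihood with 6 groups and a background term (HM1 or blastocyst-derived), 11 residual degrees of freedom and a common biological coefficient of variation of 0.246. A gene was called at a Benjamini-Hochberg adjusted p below 0.05 over all genes, in each of 9 comparisons. The script was tested on simulated data. CPM are counts per 1000000 after TMM, the log2 scale used a prior count of 2, and SD is over 3 samples. Alternatives were DESeq2 1.42.0, RLE size factors, no filter, other transcripts of a gene, HM1-derived samples alone, no background term, each day alone, left-out samples and a replicate block. Replicate numbers pair samples because they stand for the same cell line, and 16 of 18 pairs of samples of 1 series had correlated deviations above 0.1.

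The 10 genes and the 12 lists beside them (other fibroblast markers, other smooth muscle and contractile genes, SRF, YAP and actin targets, mesenchymal transcription factors, TGF-beta genes, early mesoderm, endoderm, endothelium, macrophage and leukocyte, neuron, trophoblast and embryonic stem cell) were chosen with earlier results of these data known. All 10 are named with their CPM. A fold change is given where a gene was called or reached 1 on the log2 scale, and of each list at most the 3 called genes with the highest mean level are named. Promoter sequences are from RefSeq (GRCm38.p6).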

Additional observations from a re-analysis of the deposited data

Results flagged for a closer look

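For 2 genes at day 3 both HM1-derived knockout lines lay on the same side of both HM1 replicates and line 319 lay on the other side of line 1A4. Dcn had log2 ratios of 0.80 in line 14 and 0.48 in line 19, and of -0.67 in line 319, from levels between 0.673 and 1.54 CPM. Thy1 had log2 ratios of -0.58 in line 14 and -0.66 in line 19, and of 0.0358 in line 319, whose level of 5.12 CPM was close to the 4.998 CPM of line 1A4. The difference between the backgrounds was not tested for either gene, since the blastocyst-derived background has 1 line of each genotype. Thy1 at day 0 had log2 ratios of -0.12, -0.49 and 0.86 in lines 14, 19 and 319 against the mean of their own background, but line 14 (3.02 CPM) lay above HM1 replicate 2 (2.91 CPM).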

How the results depend on the processing

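For the 41 pairs of gene and comparison (of 90) that were called or reached 1 on the log2 scale, 534 values under an alternative kept their direction and side of the threshold, 19 gained a call, 61 lost one and 1 changed sign, the day 2 to day 3 difference between genotypes of Postn with the longest transcript (-0.72, adjusted p 1.0, edgeR). At day 0, where 0 of the 10 genes were called between genotypes, 3 were called by DESeq2, 3 with day 0 fitted alone and 2 in the HM1-derived samples alone. With day 2 fitted alone, 0 were called at day 2 in place of 3. The HM1-derived samples alone gave 2 calls from day 2 to day 3 in the controls in place of 1, and without line 19 at day 2 the knockout lines gave 1 in that step in place of 3. When each series was left out in turn, between 0 and 2 were called at day 0, 1 and 2 at day 2, 1 and 4 at day 3, 3 and 7 from day 0 to day 2 in the controls, 5 and 8 in the knockout lines, and 1 and 4 from day 2 to day 3 in the knockout lines. With a replicate block for each series, 6 and 1 genes were called in the control steps and 8 and 4 in the knockout steps; the pairing added a call for Prrx1 from day 2 to day 3 and lost 0 calls in these steps. The causes of these changes were not tested. Depth limits Postn, Dcn and Twist2 most.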
